A study of Mus musculus with 49 samples.

Results

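8 of the 52636 genes in the count table are described here: Arhgap21, Gm23935, CT010467.1, Gm10800, Gphn, Gm47311, Gm4202 and Gm5559. They were picked from these counts, because they took a large share of the counts in some libraries or differed very widely between the isolation methods, so their shares and their contrasts between methods are given as a description, without a test. The study isolated RNA of the medium spiny neurons (MSNs) that express the dopamine receptor gene Drd1 (D1) or Drd2 (D2) from the mouse nucleus accumbens (NAc) by whole cell-FACS, nuclear-FACS or RiboTag affinity purification, and counted fragments on whole gene bodies. The 47 libraries comprised whole cell D1 (n = 8) and D2 (n = 6), nuclear D1 (n = 6) and D2 (n = 5), RiboTag male D1 (n = 6) and D2 (n = 6), and RiboTag female D1 (n = 5) and D2 (n = 5). Per the labels, every sample is NAc tissue of a different mouse, and all whole cell and nuclear mice were male.

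All mice were of the strain C57BL/6J and received no treatment, and their ages were not given in the sources used here. The nuclear mice were Drd1-cre or Drd2-cre crossed to Thy1-loxPSTOPloxP-EGFP-F, and sorted nuclei came from frozen tissue. The whole cell mice carried a cytoplasmic fluorophore driven by the Drd1 or Drd2 promoter in the heterozygous state, and cells were sorted from fresh tissue after papain digestion. The RiboTag mice were Drd1-cre or Drd2-cre crossed to Rpl22-loxPexon4loxP-exon4-HA, and tagged ribosomes were precipitated from fresh tissue. In each design the cell type is defined by the activity of the Drd1 or Drd2 promoter, in any cell that uses it. All libraries were depleted of ribosomal RNA before they were made.

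Ribosomal RNA makes up most of the RNA of a cell. It is transcribed in the nucleolus as a long precursor, cut into the RNA of the small and the large subunit, and carried by every ribosome that an affinity purification captures, so libraries of total RNA are depleted of it. Processed pseudogenes are copies of spliced mRNAs inserted into the genome, and satellite DNA consists of short units repeated in tandem near the centromeres. A fragment of an abundant RNA can align to an annotated copy of that RNA elsewhere in the genome and is then counted for the copy's gene.

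CT010467.1 (ENSMUSG00000106106) is annotated as an rRNA gene at chr17:39846353-39848827 on the minus strand of GRCm38. Within it lie Gm42418 (chr17:39846958-39848788, plus strand) and AY036118 (chr17:39847113-39848035, minus strand), which are annotated as long non-coding RNAs. RefSeq places a small-subunit rRNA pseudogene of 1849 bases, Rn18s-rs5, at chr17:39846354-39848202 and lists Gm42418 among its synonyms. The transcript of CT010467.1 matched that of Gm42418 over 1244 bases and that of AY036118 over 923 bases at 100% identity, on the opposite and the same strand. The first 60 bases that all 3 genes share, chr17:39847113-39847172, are printed on both strands, because a fragment from here was counted for all 3 genes without regard to strand.
Gm42418, plus strand: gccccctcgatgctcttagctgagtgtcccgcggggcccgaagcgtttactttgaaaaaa
CT010467.1 and AY036118, minus strand: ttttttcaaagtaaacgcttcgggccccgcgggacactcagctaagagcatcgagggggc

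Gm23935 (ENSMUSG00000076258) is a gene of 57 bases annotated as a miRNA at chr16:11144125-11144181, plus strand. It lies in an intron of Zc3h7a (chr16:11136592-11176393), which runs on the minus strand. Its sequence recurs in 5 other genes annotated as miRNAs, which are printed with it to show how few bases set the copies apart. Capitals mark the bases that differ from Gm23935, and Gm25911 also lacks 1 base.
Gm23935, chr16:11144125-11144181, plus strand: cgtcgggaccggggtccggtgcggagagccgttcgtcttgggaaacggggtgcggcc
Gm24245, chr4:139338304-139338360, plus strand: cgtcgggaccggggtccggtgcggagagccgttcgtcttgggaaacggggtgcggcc
Gm24270, chr9:56223715-56223771, minus strand: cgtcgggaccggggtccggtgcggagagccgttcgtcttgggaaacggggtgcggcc
Gm24187, chr13:9834469-9834525, minus strand: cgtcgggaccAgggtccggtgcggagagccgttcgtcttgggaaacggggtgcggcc
Gm25911, chr1:167340369-167340424, minus strand: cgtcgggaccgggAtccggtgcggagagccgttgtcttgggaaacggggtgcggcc
Gm23388, chr8:85112012-85112068, minus strand: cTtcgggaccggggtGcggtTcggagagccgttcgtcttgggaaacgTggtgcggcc
Gm24245 and Gm24270 had the same 57 bases as Gm23935. No sequence of the large ribosomal RNA was among the references used here, so its likeness to this family was not tested.

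Gm10800 (ENSMUSG00000075014) is annotated as protein-coding at chr2:98666547-98667301, minus strand. Its transcript of 660 bases repeats itself. When it was compared with itself at a shift of 58 or 225 bases, 51.2% or 56.3% of the bases were the same, against a median of 30.7% over the 380 shifts tried. The word TCAGTTTTC occurred 7 times in it, as often as 6 other words of 9 bases. The first 240 bases of the spliced transcript, read on the minus strand, are shown with this word in capitals.
Gm10800: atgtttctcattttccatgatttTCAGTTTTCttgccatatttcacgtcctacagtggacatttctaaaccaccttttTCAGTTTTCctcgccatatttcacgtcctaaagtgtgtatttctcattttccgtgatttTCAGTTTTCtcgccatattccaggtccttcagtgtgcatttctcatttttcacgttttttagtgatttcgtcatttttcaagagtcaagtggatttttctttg
12 other genes held a stretch of at least 50 bases at 90% identity or more with it, and 11 of them are annotated as protein-coding.

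Gm4202 (ENSMUSG00000091421, chr3:92689426-92690158, plus strand) and Gm5559 (ENSMUSG00000096617, chr5:95861714-95862715, plus strand) are processed pseudogenes. The 733 bases of Gm4202 matched the coding sequence of Ywhaz, which encodes a 14-3-3 adaptor protein, except for 1 extra base in a run of A. The 1002 bases of Gm5559 matched the coding sequence of Gapdh, the glycolytic enzyme glyceraldehyde-3-phosphate dehydrogenase, except for 1 base. The differing base is in capitals with 20 bases on either side, since within the shared bases only a fragment across it tells the copy from its parent. Fragments that reach beyond the shared bases can also tell them apart.
Gm4202, chr3:92689549-92689589: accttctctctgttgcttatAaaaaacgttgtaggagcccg
Ywhaz: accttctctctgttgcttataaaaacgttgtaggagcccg
Gm5559, chr5:95862078-95862118: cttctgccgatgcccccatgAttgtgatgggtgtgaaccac
Gapdh: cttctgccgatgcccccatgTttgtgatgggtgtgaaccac
Besides Gapdh, 162 genes shared at least 50 bases with Gm5559 at this identity, and 154 of the 163 in all are pseudogenes. For Gm4202 the number was 3.

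Gm47311 (ENSMUSG00000106587) is annotated as a miRNA of 138 bases at chr3:96239868-96240005, plus strand. It lies inside an exon of the histone H2A gene Hist2h2aa2, which runs on the minus strand, and inside an exon of Gm20632 on its own strand. Its whole sequence is printed because all 138 bases are the reverse complement of the Hist2h2aa2 coding sequence. They match the coding sequence of Hist2h2aa1 in the same way, with 0 bases differing.
Gm47311: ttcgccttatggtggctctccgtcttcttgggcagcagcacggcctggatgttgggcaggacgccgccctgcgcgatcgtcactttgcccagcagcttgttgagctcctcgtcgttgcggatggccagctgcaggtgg
51 genes shared at least 50 bases with it, of which 20 are protein-coding and 23 are annotated as miRNAs.

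Arhgap21 (ENSMUSG00000036591, chr2:20847919-20968881, minus strand) encodes a GTPase-activating protein, and Gphn (ENSMUSG00000047454, chr12:78226379-78684772, plus strand) encodes gephyrin, the scaffold of inhibitory synapses. Both are long genes, with 92.3% and 99.2% of their span outside exons. None of the 18 transcripts of Arhgap21 resembled another gene at 90% identity over 50 bases. The transcripts of Gphn resembled only Gm48226, an RNA that overlaps it by 147 bases on the opposite strand. Repeats or structural RNA inside their introns could not be searched for with the references used here, and counts on exons alone were not analysed here.

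RiboTag libraries had total counts of 24076888 to 45641342, whole cell libraries of 10476223 to 27965357 and nuclear libraries of 3701255 to 68777008. The 5 D1 markers and the 5 D2 markers of the lists differed between the RiboTag libraries as their labels say, with 5 lower and 5 higher in D2, in both sexes. In whole cell libraries, 5 D2 markers were higher and 3 D1 markers lower. After scaling, the nuclear D2 libraries followed their label only in part: 4 of 5 D1 markers were lower, but so were 3 of 5 D2 markers (Penk, Gpr6 and Adora2a). Of all genes, 19.4% were called lower in this fit. Drd2 itself took 261 to 495 CPM (counts per 1000000 counts of the library) in nuclear D2 and 49.2 to 197 in nuclear D1 libraries, and its scaled difference was not called (adjusted p = 0.194, edgeR quasi-likelihood test). Penk took 12.7 to 79.5 CPM in nuclear D2 and 88.5 to 341 in nuclear D1 libraries. Every nuclear D2 against D1 value below carries this limit, and in such bulk samples fewer cells of a type and less RNA per cell cannot be told apart.

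The 8 genes together held a mean of 30.4% of all counts in RiboTag libraries (29.5 to 31.0%, n = 22). In nuclear D1 libraries they held 14.4% ± 7.16 (SD, n = 6) and 3.26% ± 1.23 (SD, n = 5) in nuclear D2. Whole cell libraries of D1 had 1.51% ± 0.709 (SD, n = 8) on them and those of D2 6.67% ± 7.87 (SD, n = 6). CT010467.1 made up most of it in all groups except whole cell D1, where Gm10800 held more. With the genes that overlap them (Gm42418, AY036118, Zc3h7a, Hist2h2aa2 and Gm20632) the share in RiboTag libraries was 78.4% (75.7 to 80.4%), since a fragment on overlapping genes counted for each of them. A mean of 7491800 counts (4855740 to 9576160) was then left for all other genes of a RiboTag library. In whole cell libraries it was 14371900 (10370900 to 27711000), in nuclear D2 31760400 (3273690 to 42526900) and in nuclear D1 13089700 (1895170 to 35610200). The nuclear D1 median of 4216690 was below the lowest RiboTag library. Protein-coding genes held 23.2% of the counts in RiboTag (21.0 to 26.0%), 66.0% in nuclear (37.6 to 73.2% in D1) and 80.5% in whole cell libraries. Fold differences between shares of all counts therefore change when protein-coding counts are the denominator, and both are given below. The second denominator also holds genes of this kind. Arhgap21, Gphn and Gm10800 are annotated as protein-coding, and so are Zc3h7a, Cmss1 and Filip1l. The last 3 each reached 1% of counts in all 22 RiboTag libraries and in 0 whole cell libraries. Folds over protein-coding counts without these genes were not computed.

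**Figure D1:**
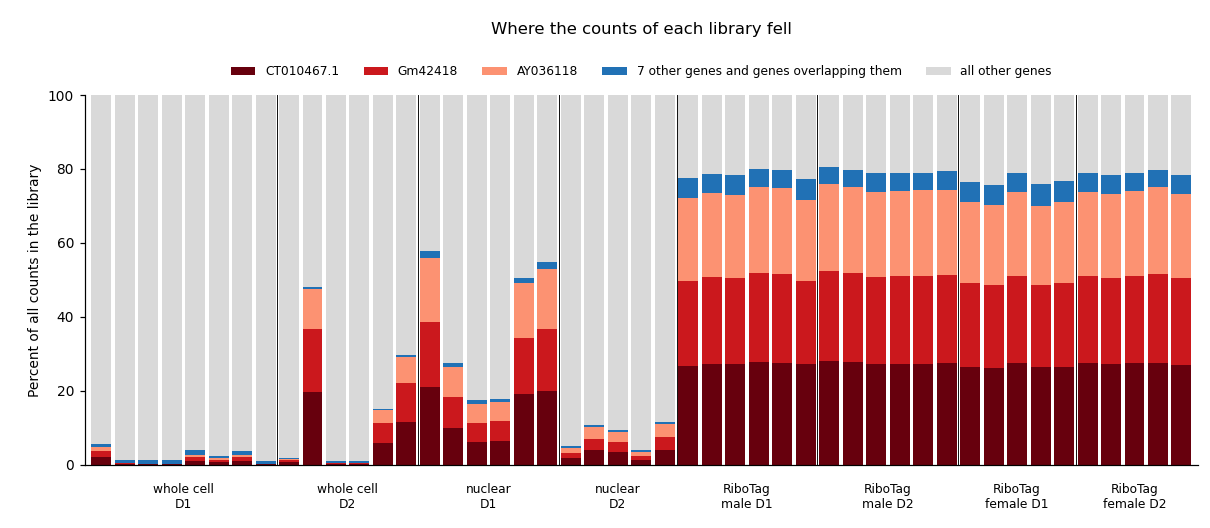
Stacked bars give the percent of all counts (y axis, 0 to 100) in each of the 47 libraries (x axis, by group) on CT010467.1, on its overlapping genes Gm42418 and AY036118, on the 7 other genes with the genes overlapping them, and on all other genes. The 3 chromosome 17 genes held 70.1 to 75.9% of every RiboTag library and between 0.282 and 47.6% of the whole cell libraries.

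The 8 genes were unequal in this. 16 genes of the table reached 1% of the counts of any library, and 4 of them were among the 8: CT010467.1 in 39 libraries, Gm23935 in 22, and Arhgap21 and Gm10800 in 1 each. Gphn stayed at or below 0.717%. Gm4202, Gm5559 and Gm47311 never took a large share and were among the 8 for their contrast between methods. The other 12 genes past 1%, among them Cmss1 and Filip1l in 25 libraries each and Cdk8 in 7, were not picked, and Cdk8 is named here after its values were seen.

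CT010467.1 ranked first among all genes in every nuclear and RiboTag library. It held 27.3% ± 0.304 (SD, n = 6) of the counts in RiboTag male D1, 27.5% ± 0.368 (SD, n = 6) in male D2, 26.6% ± 0.497 (SD, n = 5) in female D1 and 27.3% ± 0.131 (SD, n = 5) in female D2 libraries. RiboTag libraries thus hardly varied, with 26.1% as the lowest of 22 and 28.2% as the highest. In the nuclear D1 libraries numbered 1 to 6 the shares were 20.9, 9.90, 6.17, 6.47, 19.1 and 19.8%. In the nuclear D2 libraries numbered 1, 2, 3, 5 and 7 they were 1.74, 3.83, 3.37, 1.30 and 4.06%, all below the lowest D1 library. In the whole cell D2 libraries numbered 1 to 6 they were 0.609, 19.6, 0.239, 0.193, 5.83 and 11.4%. Numbers 2, 5 and 6 stood far above the rest, while whole cell D1 libraries ranged from 0.115 to 1.93% with a median of 0.446%. When the locus was counted once for CT010467.1 and left out for the genes inside it, it took 50.5% of RiboTag counts (46.7 to 53.9%).

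The position of the counts within the locus differed by method. AY036118 covers 923 of the 2475 bases of CT010467.1. Its counts equalled 83.4% of those of CT010467.1 in RiboTag (80.0 to 85.9%) and 81.0% in nuclear libraries (77.1 to 82.6%), but 53.3% in whole cell libraries (41.1 to 63.5%), which did not overlap the others. The counts of Gm42418 equalled 86.1, 83.7 and 89.9% of those of CT010467.1 in the same order. Since the counts ignore strand, fragments from the opposite strands of Gm42418 and CT010467.1 cannot be told apart.

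Gm23935 ranked seventh in all 22 RiboTag libraries with 1.73% of counts (1.51 to 2.04%). In nuclear D1 libraries 1 to 6 it held 0.647, 0.359, 0.220, 0.209, 0.486 and 0.656%. In nuclear D2 libraries 1, 2, 3, 5 and 7 it held 0.0691, 0.142, 0.123, 0.0452 and 0.173%, all lower than in D1. In whole cell libraries its median was 7.56 CPM (2.65 to 37.2), and its mean share in RiboTag libraries was 1424-fold that in whole cell libraries (4907-fold over protein-coding counts). The 57 bases held nearly all counts of their host gene in RiboTag libraries: Gm23935 equalled 91.9% of the counts of Zc3h7a there (82.2 to 95.3%), 59.6% in nuclear (52.0 to 64.4%) and 12.3% in whole cell libraries (4.93 to 24.2%). Zc3h7a, a zinc finger protein gene, therefore reached 1% of counts in 24 libraries mostly through this stretch.

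**Figure D2:**
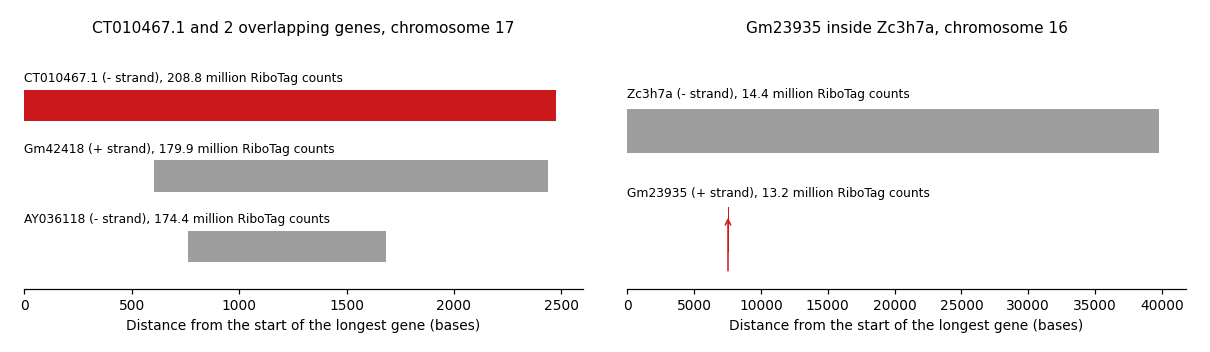
Maps to scale of CT010467.1 with the 2 genes inside it (left) and of Gm23935 inside Zc3h7a (right), where the x axis is the distance in bases from the start of the longest gene and bars are gene spans. The labels give the summed counts over 22 RiboTag libraries, and Gm23935, marked by an arrow, has nearly as many counts as the whole of Zc3h7a.

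The copies of the 57-base family took very unequal counts. Summed over the RiboTag libraries, Gm23935 had 13242654 counts, Gm24270, in an intron of Peak1, 254900 and Gm24187 62195. Gm25911 had 987, Gm23388, in an intron of Zfp791, 2 and Gm24245 1. The same 57 bases thus had 1, 254900 and 13242654 counts at Gm24245, Gm24270 and Gm23935. Fragments that aligned to several places were left out, and the bases next to the copies were not compared.

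Arhgap21 held 0.862% of counts in RiboTag libraries (0.687 to 1.04%), which placed it between ninth and eleventh among all genes. In whole cell libraries it held 0.0148% (0.00619 to 0.0224%). In nuclear D1 libraries 1 to 6 it held 0.0493, 0.0304, 0.0243, 0.0254, 0.0355 and 0.0443%, and in nuclear D2 libraries 0.0176, 0.0228, 0.0209, 0.0139 and 0.0164%. The mean RiboTag share was 58.3-fold the whole cell and 31.5-fold the nuclear mean (206-fold and 73.7-fold over protein-coding counts), without overlap between RiboTag and the other libraries.

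Gphn followed the same order of methods at 0.619% in RiboTag (0.501 to 0.717%), 0.0967% in nuclear and 0.0338% in whole cell libraries (0.0238 to 0.0511%). In nuclear D1 libraries 1 to 6 it held 0.191, 0.0817, 0.0766, 0.0902, 0.195 and 0.171%, and in nuclear D2 libraries 0.0487, 0.0627, 0.0620, 0.0363 and 0.0486%. The RiboTag mean was 18.3-fold the whole cell mean and 6.40-fold the nuclear mean, or 59.4-fold and 14.1-fold over protein-coding counts. The counts of Gphn relative to Arhgap21 also changed with the method, from 265% in whole cell and 333% in nuclear to 72.1% in RiboTag libraries (59.4 to 100%).

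Gm10800 had the opposite pattern. It held 0.771% ± 0.186 (SD, n = 8) of counts in whole cell D1 libraries (0.413 to 1.01%, median 0.766%), where it was among the 5 genes with the most counts. In whole cell D2 libraries 1 to 6 it held 0.245, 0.399, 0.286, 0.393, 0.180 and 0.256%, all lower than in D1. In nuclear D1 libraries 1 to 6 it held 0.00355, 0.00275, 0.278, 0.146, 0.0344 and 0.0841%, and in nuclear D2 libraries 0.312, 0.155, 0.144, 0.323 and 0.164%, of which 3 lie inside the D1 range. All 22 RiboTag libraries together had 4 counts in 766978485, or 0.00522 CPM with an exact Poisson interval from 0.00142 to 0.0134. In the RiboTag D2 libraries the count was 0, for which the same interval reaches up to 0.0177 CPM in males and 0.0189 in females. Intervals and limits cover counting error only.

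The olfactory (Olfr) and vomeronasal (Vmn) receptor genes were also nearly absent from RiboTag libraries. They held 0.344% of counts in whole cell D1, 0.218% in whole cell D2, 0.0836% in nuclear D1, 0.447% in nuclear D2 and 0.00046% in RiboTag libraries. The nuclear D1 libraries numbered 1 and 2, in which Gm10800 was lowest, also had the lowest shares on these receptors of all whole cell and nuclear libraries, down to 0.00647%. Gm10800 had 215 counts for every 100 on the receptors in whole cell (86.1 to 392), 74.7 in nuclear (15.4 to 185) and 0.0999 in RiboTag libraries. The part of counts from other sources than mRNA in these values was not tested.

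Gm4202 had its highest share of all counts in whole cell libraries. The whole cell mean was 4.48-fold the RiboTag mean, but 1.26-fold over protein-coding counts. It had 272 ± 136 CPM (SD, n = 8; 68.7 to 429, median 294) in whole cell D1, and in whole cell D2 libraries 1 to 6 it had 365, 83.3, 182, 111, 286 and 122 CPM. RiboTag libraries had 53.0 CPM (46.5 to 61.0) and nuclear libraries 0.385 CPM (0 to 2.35). Against its parent Ywhaz, the pseudogene had 180% of the counts in whole cell (105 to 248%), 48.1% in RiboTag (42.1 to 52.4%) and 0.403% in nuclear libraries. Every whole cell library had more counts on the copy than on the parent gene, over its whole body.

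Gm5559 was a RiboTag gene by its counts, with 22.4 CPM there (no library below 18.5). It had 1.13 CPM ± 0.592 (SD, n = 6) in nuclear D1 and 0.137 CPM ± 0.0820 (SD, n = 5) in nuclear D2 libraries. In whole cell D2 libraries it had no count, for which the exact Poisson interval reaches up to 0.0351 CPM over the 6. Of its 44 counts in whole cell D1 38 were in number 1. Its parent Gapdh had 5.97 CPM in RiboTag, 5.28 in whole cell and 7.88 in nuclear libraries, so that the copy had 378% of the parent's counts in RiboTag libraries (312 to 438%) and fewer than the parent in all others.

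**Figure D3:**
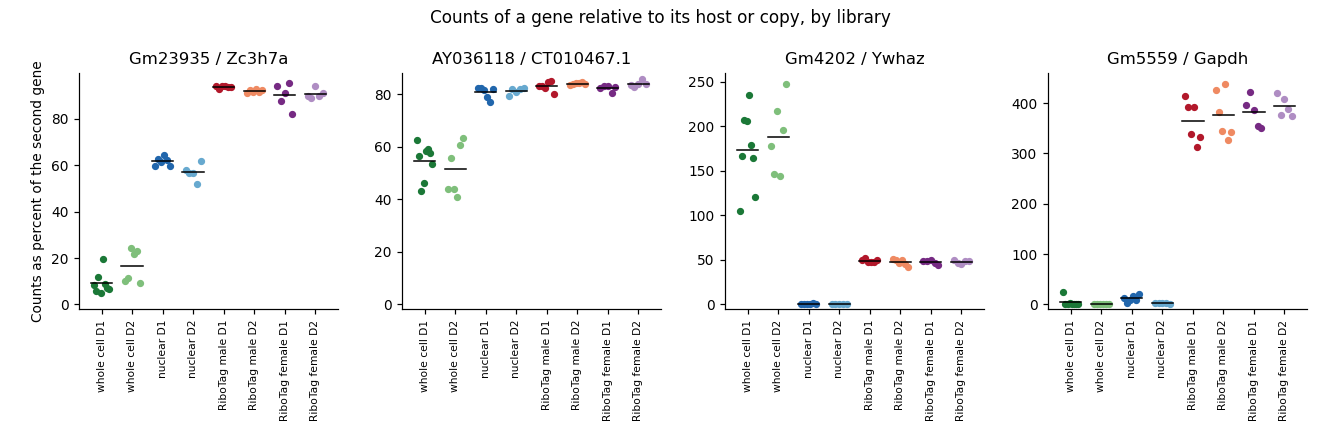
Points give, for each of the 47 libraries (x axis, by group), the counts of a gene as percent of those of its host, overlapping or parent gene (y axis, linear), with a bar at the group mean. Gm23935 stood at 82.2 to 95.3% of Zc3h7a in RiboTag libraries, and Gm4202 exceeded Ywhaz in every whole cell library.

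Gm47311 had 1.99 CPM in RiboTag libraries (1.55 to 2.76), 20 counts in all nuclear libraries and 1 in all whole cell libraries. RiboTag female D1 libraries numbered 1, 2, 4, 5 and 6 had 1.63, 1.79, 2.00, 1.55 and 1.97 CPM. The female D2 libraries had 1.90, 1.93, 2.76, 1.86 and 2.29 CPM, with 3 of 5 inside the range of D1. Its counts equalled 95.3% of those of Hist2h2aa2 in RiboTag libraries (89.8 to 100%). Nearly every fragment counted for that histone gene thus also touched these 138 bases, and the strand it came from is not known. Hist2h2aa1 holds the same 138 bases, and fragments with several alignments were not counted. Where the uncounted histone fragments came from is therefore not known.

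Per length of gene span, in fragments per kilobase and per 1000000 counts with DESeq2's size factors (FPKM), Gm23935 was highest in RiboTag libraries at 301203 ± 21174 (SD, n = 22), followed by CT010467.1 at 109549 ± 10263. Gm4202 with 71.6 ± 4.70 and Arhgap21 with 70.9 ± 7.12 did not differ beyond their spread, and Gm5559 came next with 22.1 ± 1.49. Gm47311 with 14.4 ± 2.58 and Gphn with 13.4 ± 1.16 did not differ beyond their spread either. In whole cell D1 libraries Gm10800 led with 8566 ± 2093 (SD, n = 8), above CT010467.1 with 2334 ± 2332. All 22 RiboTag libraries exceeded an FPKM of 50000, an upper limit the study's own filter used, for both Gm23935 and CT010467.1, as did 4 and 3 of the nuclear libraries and 0 and 2 of the whole cell libraries.

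**Figure D4:**
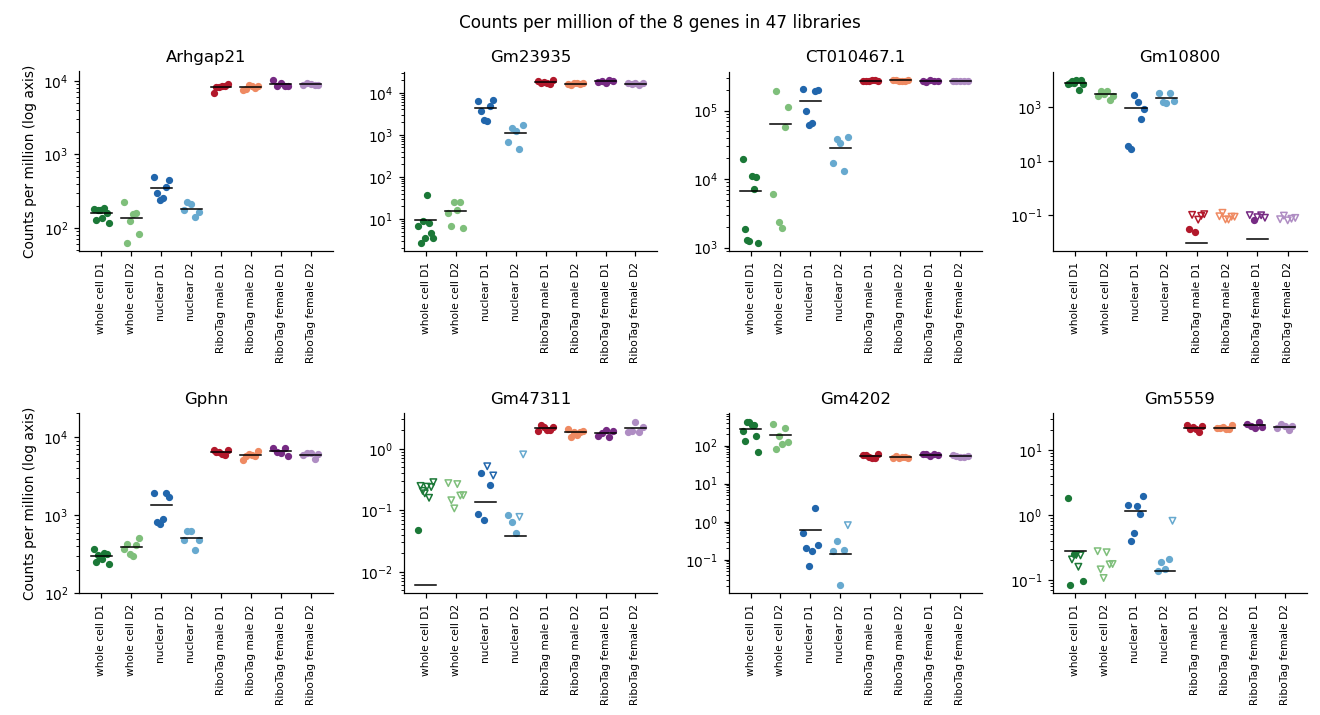
Each panel gives the CPM of 1 of the 8 genes (y axis, log scale) in the 47 libraries by group (x axis), with a bar at the group mean where it is above 0. Open triangles mark libraries without a count, drawn at the level of 3 counts. Gm10800 was at 0 in 19 of 22 RiboTag libraries, whereas 6 other genes had their highest means there.

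Across the 47 libraries, the genes nearest in pattern were found by Pearson's r of log2 CPM among 24613 genes, which describes the 3 methods more than it does single libraries. Arhgap21 and Gphn were nearest to each other (r = 0.972) and next to Gm5559 (0.963 and 0.964). Gm47311 was nearest to Arhgap21 (0.962). Gm23935 was nearest to its copy Gm24270 (0.984) and to the overlapping pair Filip1l and Cmss1 (0.981 and 0.980), which had a mean of 36671 and 36670.2 CPM in RiboTag libraries. CT010467.1 was nearest to Gm19951 (0.993) and Lars2 (0.985), a mitochondrial tRNA synthetase gene. Gm10800 was nearest to Gm21738 (0.998), and Gm4202 to the pseudogenes Eif4a-ps4 and Rpl3-ps1 (0.969 each).

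A quasi-likelihood test (edgeR) compared D2 with D1 libraries of 1 method at a time. The rule did not name this contrast, but the genes were chosen on shares by library in the same counts. The p-values of the 8 genes are therefore not independent of that choice. Counts were scaled by TMM, p-values were adjusted by Benjamini-Hochberg over all genes tested, and a gene was called at an adjusted p of at most 0.05 and an absolute log2 fold change above 0.38. In nuclear libraries 6 of the 8 genes passed the filter, and 5 were called lower in D2. Gm5559 passed it only through D1 libraries, with no D2 library above 0.208 CPM, so the filter itself depended on the difference. The background was high, since 24.8% of the 33197 genes tested were called, 5.43% as higher and 19.4% as lower. Arhgap21 fell by 2.72 ± 0.52 (SE) on the log2 scale (adjusted p = 0.00498), Gphn by 3.23 ± 0.62 (0.00498) and Gm5559 by 4.58 ± 0.81 (0.00495). Gm23935 fell by 3.79 ± 0.74 (0.00498) and CT010467.1 by 4.14 ± 1.02 (0.0118). Gm10800 was not called (0.26 ± 0.71, adjusted p = 0.774).

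The unscaled shares of these 5 genes did not overlap between nuclear D1 and D2 libraries. This is a description and no further support, because the genes were picked on shares by library. Gm5559 also passed the filter only through D1 libraries. Of all 33197 genes, 0.868% did not overlap and were lower in D2, and 41.5% did not overlap and were higher. The D1 mean share was 1.90-fold the D2 mean for Arhgap21, 2.60-fold for Gphn, 3.88-fold for Gm23935, 4.81-fold for CT010467.1 and 8.20-fold for Gm5559. Over protein-coding counts it was 3.16-, 4.44-, 6.64-, 8.33- and 13.9-fold in the same order. The balance of all calls depended on the scaling, the filter and 1 library. TMM factors ranged from 0.290 to 1.28 in nuclear D1 and from 1.56 to 2.06 in nuclear D2 libraries, and 1803 genes were called higher and 6435 lower. With DESeq2's size factors the split was 4273 higher and 4019 lower, and the median log2 fold change of all genes was 0.71 in place of 0.38. With no filter it was 3740 and 5660, and without nuclear D1 number 3 it was 8231 and 7671. All 5 genes were called lower under both scalings, with the limit given above for Gm5559.

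Other groups of genes moved in the same nuclear comparison. All 4 rRNA-like genes tested (Gm26917, Gm42418, AY036118 and Lars2) were lower in nuclear D2, with a median log2 fold change of -4.08 against 0.38 over all genes, but 2 of them share their fragments with CT010467.1. 5 of 6 small structural RNA genes (median -5.10) and 27 of 32 mitochondrial transcripts (median -4.58) were lower, and the mitochondrial share of counts was 0.863% in nuclear D1 and 0.0747% in D2. All 7 partners of gephyrin at inhibitory synapses were called lower after scaling (median -1.43), as were 19.4% of all genes. Without scaling their summed level was not lower, at 598 to 802 CPM (median 790) in nuclear D2 and 421 to 1362 (median 716) in D1. Of 3 RNAs retained in the nucleus 2 were called lower after scaling (median -1.63). Their unscaled sum was 3344 to 9845 CPM (median 8192) in D2 and 3499 to 17058 (median 8096) in D1. None of 12 satellite-like genes was called (median 0.50), but Gm10800 is itself 1 of the 12. Of 1260 Olfr and Vmn genes 108 were higher and 1 lower (median 1.51), where 5.43% of all genes were called higher and 19.4% lower.

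Markers of other cells moved with the groups too. The summed level of 4 microglial markers was 171 to 217 CPM in nuclear D2 and 41.3 to 167 in D1 libraries, and that of 4 endothelial markers 136 to 231 and 6.05 to 112 CPM. 4 astrocyte markers summed to 183 to 208 CPM in D2 and 93.1 to 254 in D1, and 4 oligodendrocyte markers to 315 to 710 and 356 to 759 CPM. After scaling, 2, 0, 3 and 4 markers of these lists were called lower in D2 and 0, 1, 0 and 0 higher. Of all genes, 19.4% were called lower and 5.43% higher in the same fit. None of the markers was at 0 in all nuclear libraries. Their part in the results was not tested.

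**Figure D5:**
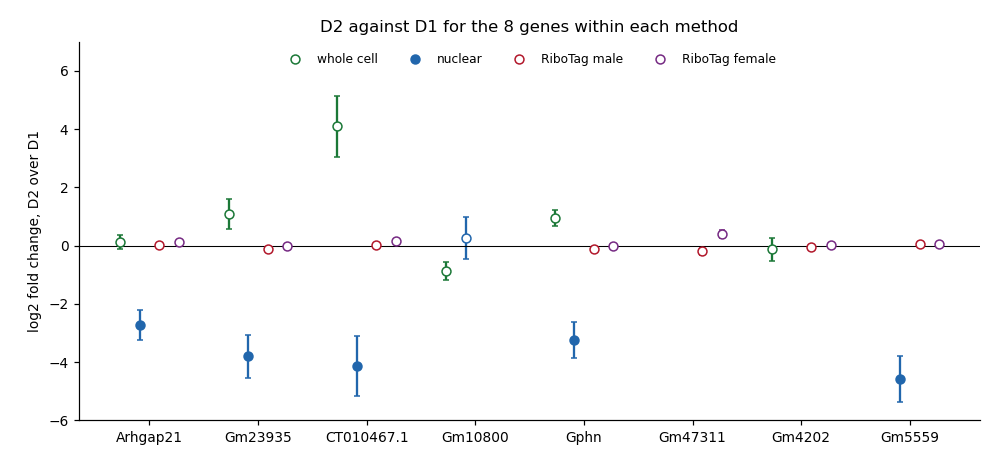
Points give the log2 fold change of D2 over D1 (y axis, bars are standard errors from the edgeR fit) for each of the 8 genes (x axis) in whole cell, nuclear, RiboTag male and RiboTag female libraries, with filled points for called genes and no point for genes that were not tested. The 5 called genes are all nuclear and lie between -4.58 and -2.72.

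In whole cell libraries none of the 6 genes tested was called by edgeR, where 35 of 34270 genes (0.102%) were called (0.0554% higher, 0.0467% lower) and 2124 had an unadjusted p under 0.05. DESeq2 called 308 genes, CT010467.1 among them. The log2 difference of D2 over D1 was 4.09 ± 1.05 (SE) for CT010467.1 (adjusted p = 0.146, edgeR), and 4.13 by DESeq2 (adjusted p = 0.00274). This difference rested on the D2 libraries numbered 2, 5 and 6, and without them it was -0.97 (adjusted p = 0.917), an alternative chosen after seeing the data. Gphn (0.94 ± 0.27, adjusted p = 0.214), Gm23935 (1.10 ± 0.51, 0.781) and Gm10800 (-0.87 ± 0.31, 0.476) were not called. Without the same 3 libraries Gphn was at 0.09 and Gm10800 at -1.36 (adjusted p = 0.104). For Gm10800 the unscaled shares of whole cell D1 and D2 did not overlap, with a D1 mean 2.63-fold the D2 mean (2.05-fold over protein-coding counts). Of all 34270 genes, 1.2% did not overlap and were lower in D2 and 0.0233% higher. For Arhgap21 (0.12 ± 0.23) and Gm4202 (-0.13 ± 0.40) the difference was smaller than its standard error. Gm5559 and Gm47311 were below the filter. Among the lists of rRNA-like, satellite-like, small structural, mitochondrial, gephyrin-partner, nuclear-retained and receptor genes, edgeR called 0 genes here. In RiboTag libraries it called 0 as well, but the satellite-like and receptor genes were all below the filter there. The whole cell median was 4.07 for the 4 rRNA-like, -0.85 for the 12 satellite-like and -1.78 for 36 mitochondrial genes, against -0.06 over all genes. The satellite-like list includes Gm10800 itself, and the rRNA-like list includes Gm42418 and AY036118, which share fragments with CT010467.1.

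In RiboTag libraries none of the 7 genes tested was called between D2 and D1. In males 460 of 11238 genes (4.09%) were called, 1.31% as higher and 2.79% as lower, and in females 323 (2.87%), 0.943% as higher and 1.93% as lower. The difference in males lay between -0.19 ± 0.12 for Gm47311 and 0.05 ± 0.06 for Gm5559, and for CT010467.1 it was 0.04 ± 0.05. In females it was 0.17 ± 0.06 for CT010467.1 (adjusted p = 0.104) and 0.41 ± 0.13 for Gm47311 (adjusted p = 0.0783). Without female D1 number 4 or without female D2 number 2, Gm47311 was called (0.51 and 0.46, adjusted p = 0.0282 and 0.0443).

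Female and male RiboTag libraries were compared to look for a difference by sex within each cell type. In D1-MSNs none of the 7 genes tested was called by edgeR, with 0 called of 11238 (0%), 1052 at an unadjusted p under 0.05 and 4 called by DESeq2. The log2 difference of females over males was -0.22 ± 0.06 for CT010467.1 (unadjusted p = 0.000525, adjusted p = 0.268), and its female range of 26.1 to 27.5% overlapped the male range of 26.7 to 27.7%. Gm47311 was -0.45 ± 0.13 in this contrast (adjusted p = 0.326), and -0.55 (adjusted p = 0.0477) without female D1 number 4. In D2-MSNs none of the 7 genes tested was called, against 7 of 11238 (0.0623%, with 0.0267% higher and 0.0356% lower in females) in the table, and their differences lay between -0.09 and 0.15. A difference between the sexes in the D2 against D1 contrast was called for none of the 7 (0 of 11238 genes called, 0%, 755 at an unadjusted p under 0.05, none by DESeq2). Gm47311 came nearest with 0.60 ± 0.18 (adjusted p = 0.562).

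Last, the D2 against D1 difference of nuclear libraries was tested against that of whole cell libraries. The genes were chosen on shares and on contrasts between methods in these same libraries, so their p-values here are not independent of the choice either. 5 of the 7 genes that passed the filter were called with a lower nuclear difference, where 20.7% of 36229 genes were called, 17.9% in this direction and 2.76% in the other. This balance also depended on the settings, with 1000 higher and 6496 lower as reported, 1770 and 2557 with DESeq2's size factors, 4540 and 3589 with the DESeq2 test, and 5138 and 2173 with no filter. The interaction was -8.54 ± 1.64 (SE, log2) for CT010467.1 (adjusted p = 0.00138) and -3.64 (adjusted p = 0.0408) without the 3 whole cell D2 libraries with the most counts on it. It was -5.29 ± 0.94 for Gm23935 (0.00108), -4.55 ± 0.67 for Gphn (0.000325) and -3.23 ± 0.58 for Arhgap21 (0.00112). For Gm4202 it was -3.42 ± 1.06 (0.0218), but it passed the filter through the whole cell libraries, with 80 counts in all nuclear libraries, and was not called without nuclear D1 number 1 (-2.53, adjusted p = 0.186). Gm10800 (0.85, adjusted p = 0.397) and Gm5559 (0.71, adjusted p = 0.512) were not called.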

How the data were processed

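Libraries were made with a stranded kit from total RNA depleted of rRNA, 1 mouse per sample. Per the labels and the study's methods, the authors aligned reads to GRCm38 with HISAT2 2.0.5 and deposited raw counts per gene (unit: counts) from featureCounts, taken over the full gene body from both strands. A fragment on overlapping genes counted for every one of them, while those with several alignments did not count, which bears on genes inside others and on copies. Of 49 columns, a repeat of whole cell D1 number 1 and a lane of whole cell D2 number 3 were summed with their libraries, so n is 8 and 6 where the study counts 9 and 7. Chi-square per degree of freedom was 1.04 between the lanes, 6.90 between the repeat and its library, and 58.4 between 2 D1 libraries, so the repeat differed beyond sampling noise. 2 labelled whole cell D2 samples, whose numbers match no column, were not analysed here. The annotation (GENCODE, GRCm38) held 52489 of the 52636 identifiers.

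The 8 genes, the gene lists and the tests were chosen with earlier results of these data known. Genes with more than 1 CPM in at least 2 libraries were tested with edgeR 4.0.16 in R 4.3.3, with DESeq2 1.42.0 as an alternative. The test was also run on simulated libraries that shared a common expression profile. They lacked the shift in composition between nuclear D1 and D2 libraries, so they do not check the calls that depend on it. Transcripts were compared with blastn 2.17.0 (word size 11, at least 90% identity over 50 bases). Named genes are the 8, genes overlapping them with at least 10% of their counts, the 3 nearest in pattern and the lists. Copies, hosts and parent genes outside these were named after their values were seen.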

Additional observations from a re-analysis of the deposited data

Results flagged for a closer look

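In 6 of 60 groups of CPM values, the highest or lowest library lay apart from the rest by Dixon's test, where chance flags about 1 in 20 groups. RiboTag male D1 number 1 was low for Arhgap21, with 6870 CPM. Whole cell D1 number 5 was high for Gm23935, with 37.2 CPM where no other library of the group passed 9.17. Nuclear D1 number 5 was high for Gm4202, with 2.35 CPM from 9 counts. Whole cell D1 number 1, the library with a repeat column, was high for Gm5559 with 1.83 CPM (38 counts) and the only library of its method with a count of Gm47311 (0.0483 CPM, 1 count). RiboTag female D1 number 2 had 0.0663 CPM of Gm10800 (2 counts), with none in the others of its group.

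For 5 genes the D2 against D1 difference was not the same in nuclear and in whole cell libraries by the interaction term. On the log2 scale it was -8.54 for CT010467.1, -5.29 for Gm23935, -4.55 for Gphn, -3.42 for Gm4202 and -3.23 for Arhgap21. The Gm4202 value rests on a gene that passed the filter through whole cell libraries, and it was not called without nuclear D1 number 1, with DESeq2's size factors or with no filter.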

How the results depend on the processing

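None of the 8 genes changed sign where it was called, but 23 uncalled differences did. CT010467.1 in whole cell libraries went from 4.09 to -0.97 without D2 numbers 2, 5 and 6. Arhgap21 there went from 0.12 to -0.039 with the FPKM limits and -0.0020 with the replicate block. Gm5559 in the nuclear against whole cell difference went from 0.71 to -0.064 with DESeq2 and -0.89 without the repeat column. In female RiboTag libraries, Gphn was 0.0017 with no filter and Gm4202 -0.0050 with the FPKM limits. The other 16 came without single replicates. The ranges over these were -0.0080 to 0.62 for Gm10800 in nuclear libraries, and in female RiboTag libraries -0.051 to 0.0014 for Gm23935, -0.062 to 0.029 for Gphn and -0.024 to 0.039 for Gm4202. For females over males they were -0.080 to 0.0031 for Gm5559 in D1, and in D2 -0.0065 to 0.033 for Gm4202 and -0.046 to 0.00030 for Gm5559. For the difference of the sexes it was -0.028 to 0.055 for Gm5559. The cause was not tested.

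The numbers of genes called moved most in nuclear libraries, where they were 8238 by the reported fit, 13865 with DESeq2, 1683 with the study's FPKM limits and 4347 to 15902 when each replicate was left out, the highest without nuclear D1 number 3 and the lowest, with 4700 and 4347, without nuclear D2 numbers 1 and 5. In whole cell libraries 35 became 308 with DESeq2, 149 with the FPKM limits and 60 with the repeat column as a library of its own. In RiboTag libraries, 460 became 267 in males and 323 became 202 in females with the FPKM limits, and 500 in females with no filter on low counts, where leaving out replicates gave 258 to 377. For females against males, 0 became 4 with DESeq2, 139 with no filter and 0 to 67 without single replicates in D1, the highest without female D1 number 4, and 7 became 65 and 0 to 8 in D2. The difference of the sexes gave 59 with no filter and 0 to 1 without single replicates. The nuclear against whole cell difference gave 4327 with DESeq2's size factors in place of 7496, and 5285 to 11470 without single replicates, the highest without nuclear D1 number 3. Without whole cell D2 numbers 2, 5 and 6, an alternative chosen after seeing the data, 44 genes were called in whole cell libraries and 6864 for the nuclear against whole cell difference.

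Of the 8 genes, the 5 called in nuclear libraries stayed called without any single replicate, and 3 with the FPKM limits, whose upper limit removed Gm23935 and CT010467.1. Gm5559, among the 5, passed the filter of the reported fit only through nuclear D1 libraries. DESeq2 called 1 in whole cell libraries. Leaving out replicates gave 0 to 1 in female RiboTag libraries, 0 to 1 for females against males in D1, and 4 to 5 for the nuclear against whole cell difference, where Gm4202 was also lost with DESeq2's size factors (adjusted p = 0.0695) and with no filter (0.0529).

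With the replicate number as a block, 0 genes were called in nuclear libraries, none of the 8 among them (adjusted p from 0.0847 to 0.119), 16 in whole cell libraries, 1 for the difference of the sexes, and 5 for the nuclear against whole cell difference, again with 0 of the 8. Correlations of deviations for the same number ranged from -0.25 to 0.23 in nuclear and from -0.26 to 0.15 in whole cell libraries, and so gave no sign of pairing. These are few pairs, and the samples of a pair come from different mice. Whether samples of the same number shared a batch was not tested.

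With protein-coding counts as the denominator, 40 of 64 shares moved by more than the spread between replicates, and with the chromosome 17 locus counted once 29 did. Depth limits the low genes: Gm47311, Gm5559 and Gm4202 had few counts outside their main methods, and RiboTag libraries had 4855740 to 9576160 counts outside the 8 genes and those overlapping them.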
